A study of Oryza sativa with 12 samples.

Results

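The class A heat shock factor (HSF) genes of rice were taken as all genes whose symbol or synonym in the annotation of the array begins with HSFA and a number. Of 13 such genes, 8 had a row of their own on the array: *HSFA2A*, *HSFA2B*, *HSFA2C*, *HSFA2D*, *HSFA4B*, *HSFA4D*, *HSFA5* and *HSFA9*. Each of them had 1 row, among 15140 genes with a row of their own and 54922 rows in all. *HSFA1*, *HSFA2E*, *HSFA3*, *HSFA6A* and *HSFA6B* were not analysed here. The reference gene table lists *HSFA2C* as a transcribed pseudogene. It also gives names of acireductone dioxygenase genes (*ARD1* and *ARD2*) among the synonyms of *HSFA2C* and *HSFA2D*, and which transcript these rows read was not tested. *SPL7* (spotted leaf) is a synonym of *HSFA4D*, and rice plants that lack its function form lesions on their leaves.

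HSFs are transcription factors that bind heat shock elements in the promoters of heat shock protein genes. Plants have many of them, sorted into classes A, B and C. Class A proteins carry the acidic activator motifs that switch on target genes, whereas most class B and class C proteins lack these motifs, and several class B proteins act as repressors. In tomato and Arabidopsis, HSFA1 proteins start the heat response, HSFA2 is induced by heat and prolongs it, HSFA4 is linked to responses to reactive oxygen species, HSFA5 represses the activity of HSFA4, and HSFA9 of sunflower and Arabidopsis acts during seed maturation.

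RNA came from the shoot apices of 5-day-old rice seedlings, which comprise the shoot apical meristem (SAM) and young leaf primordia. All seedlings, the mock groups included, carried *pACT1-GVG>OsWOX4:RNAi*, in which a rice actin promoter drives GVG, a hybrid transcription factor. With the steroid dexamethasone (DEX) bound, GVG moves into the nucleus and activates an RNAi construct against *OsWOX4*, a homeobox gene of the shoot apex. Seedlings were shaken in liquid MS medium with 10 μM DEX or with mock solution for 3 or 12 h, and each of the 4 groups (DEX 3 h, mock 3 h, DEX 12 h, mock 12 h) was measured on 3 arrays of biological replicates. Whether the arrays came from 1 or several transgenic lines is not given in the sources used here. No array of plants without the construct was used, so effects of DEX or of GVG and those of *OsWOX4* silencing cannot be told apart. Changes of transcript level per cell and changes in the share of cells of a type cannot be told apart either in such bulk tissue.

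The values are normalized log2 signals, whose precision is limited by the number of arrays. Replicate arrays correlated at 0.982 to 0.990 over all rows, and the median log2 signal of an array was 5.64 to 5.66 in the DEX 12 h group and 5.72 to 5.76 in the other groups. The *OsWOX4* row was higher in the arrays labelled DEX at both times (log2 fold change 0.81 at 3 h and 1.54 at 12 h; adjusted p in limma = 0.0372 and 3.27e-06). Silencing would lower it, but the row may read the RNAi transcript as well as the endogenous mRNA, so it cannot serve as a check of the labels. By the test in limma 6 of 16 shoot apex marker genes were higher and 9 lower at 12 h. Over all rows 14.9% were higher and 28.0% lower, and with 1 row per gene 24.5% and 34.5%. Signals of these markers added up to a log2 of 11.98 to 12.1 in DEX 12 h arrays and 11.42 to 11.57 in mock 12 h arrays. The higher sum rests on the brightest rows of the DEX 12 h arrays, so it does not show that the list rose. Mean signals in DEX 12 h and mock 12 h arrays were 1817 and 676.7 for *OsYAB3*, 858.7 and 202.2 for *OsYAB7*, and 395.0 and 136.2 for *OsWOX4*. The largest rise at 12 h on this list, which includes *OsWOX4*, was that of *OsYAB7* (log2 fold change 2.08). The largest falls were those of *OsYAB1* (-2.69) and *DL* (-1.44, adjusted p = 4.81e-06 in limma). At 3 h *OsYAB3* rose (0.55, adjusted p = 0.0246) beside *OsWOX4*. Of these genes, *DL* acts in the midrib of the leaf and the *OsYAB* genes are of the same YABBY family.

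After 12 h of DEX, all 8 class A genes differed from mock. Transcripts of 7 were higher and those of *HSFA2B* were lower, so that the class moved in opposite directions. In each of the 8 the 3 DEX arrays lay wholly on one side of the 3 mock arrays, as they did for 52.5% of all rows. The rises ran from 1.40-fold for *HSFA2D* to 31.5-fold for *HSFA4D*. After 3 h, *HSFA4B* alone passed the test among the 8. These calls are those of limma, with Benjamini-Hochberg adjustment across all rows and a threshold of 0.05. At 12 h, 43.0% of all rows passed it (14.9% higher and 28.0% lower), so a call alone says little about these genes. After quantile normalization the calls were split more evenly, with 20.2% of rows higher and 23.4% lower, and the 8 calls stood. On a fit with 1 row per gene the share called was 59.0%, with 24.5% higher and 34.5% lower. The median log2 fold change of the 8 genes was 1.18 and that of all rows was -0.0586.

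**Figure D1:**
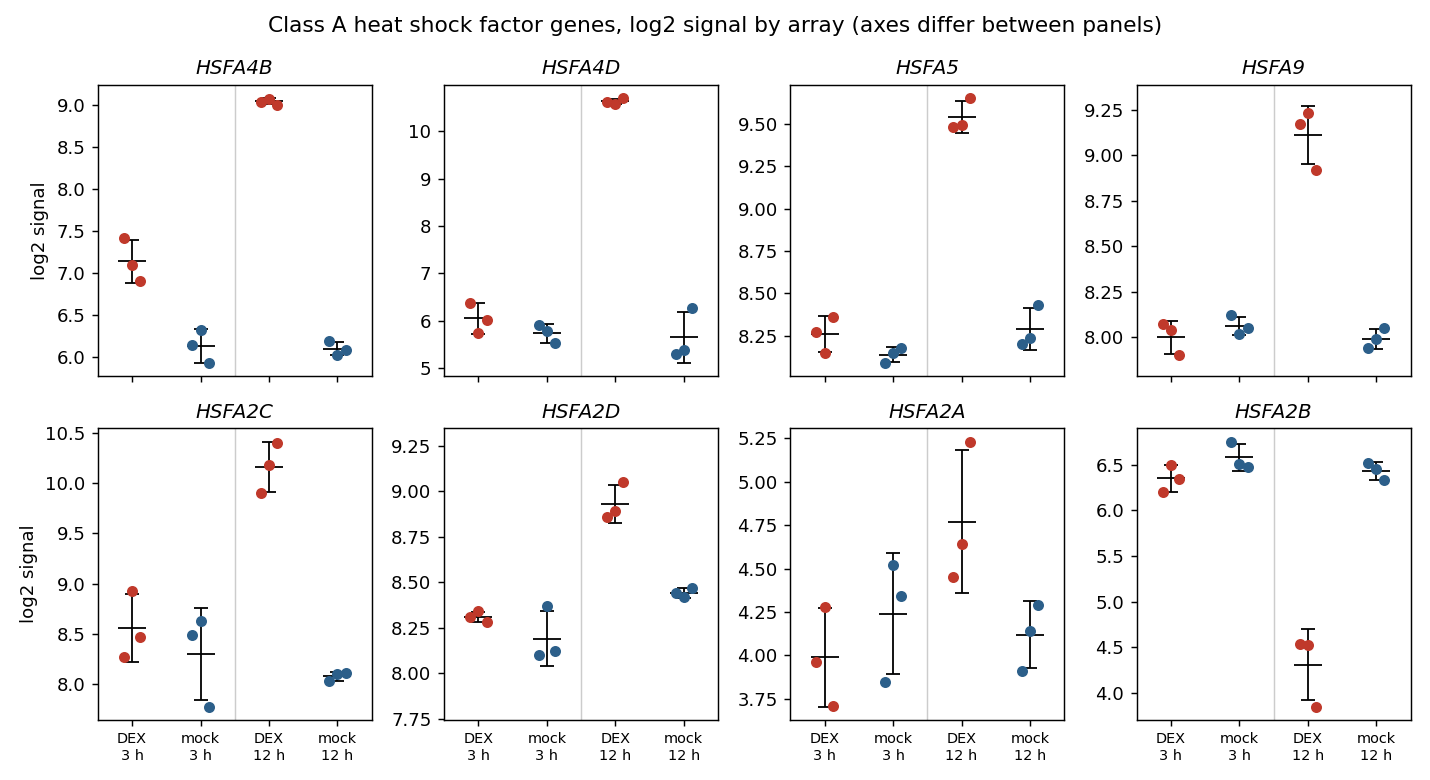
Log2 signal of the 8 class A genes on each of the 12 arrays, in DEX (red) and mock (blue) groups at 3 h and 12 h. Points are arrays, horizontal lines group means and bars SD (n = 3), and the axis differs between panels. In all 8 panels the DEX 12 h arrays stand apart from the mock 12 h arrays, below them for *HSFA2B* and above them for the other genes.

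The *HSFA4* genes showed the largest rises. Log2 signals of *HSFA4D* were 10.61, 10.58 and 10.70 in DEX 12 h arrays, against 5.29, 5.39 and 6.27 in mock 12 h arrays. The DEX arrays lay close together and far above the mock arrays, among which replicate 3 was the highest. On the linear scale the mean signal was 1582 ± 68.3 in DEX and 52.8 ± 21.3 in mock arrays (SD, n = 3 each). Its log2 fold change of 4.98 (SE 0.24, adjusted p = 4.07e-08) had rank 30 from the highest among 15140 genes. A rise of at least 4 on the log2 scale that passed the test was found for 0.561% of these genes. At 3 h the log2 signals of *HSFA4D* were 6.38, 5.75 and 6.02 in DEX arrays and 5.92, 5.78 and 5.53 in mock arrays. These groups overlapped, with a log2 fold change of 0.30 (95% interval -0.22 to 0.83, adjusted p = 0.995).

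*HSFA4B*, the other *HSFA4* gene with a row, was higher at both times. At 3 h its log2 signals were 7.41, 7.10 and 6.91 in DEX arrays and 6.14, 6.32 and 5.93 in mock arrays. The groups did not overlap, as was so for 10.7% of all rows, and the log2 fold change of 1.01 (SE 0.14, adjusted p = 0.0108) is a 2.01-fold rise. At this time 0.244% of all rows were called (0.24% higher), and on a fit with 1 row per gene 0.938% (0.878% higher). The call rests on small margins. It did not pass when the 3 h arrays were fitted alone (adjusted p = 0.253), in an unmoderated test (0.0502) and without replicate 1 or 3 of the mock 3 h group (0.0605 and 0.059), while the log2 fold change stayed between 0.87 and 1.12 when any 1 array was left out.

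At 12 h the log2 signals of *HSFA4B* were 9.03, 9.07 and 9.0 in DEX arrays, against 6.19, 6.03 and 6.08 in mock arrays. Arrays within each group were nearly alike and the groups were far apart. This 7.67-fold rise, or 2.94 on the log2 scale (SE 0.14, adjusted p = 3.25e-08), had rank 232 of 15140. Both *HSFA4* genes thus rose at 12 h. At 3 h, leaving out any 1 array gave *HSFA4D* a log2 fold change between 0.14 and 0.46, which never passed. The rise of *HSFA4D* exceeded that of *HSFA4B* by 2.04 on the log2 scale at 12 h and was 0.70 smaller at 3 h (a difference of -0.70). In a two-sided exact permutation test each difference gave p = 0.1, the smallest that 3 against 3 arrays allow, so these differences cannot pass a threshold of 0.05.

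*HSFA2B* went the other way. Its log2 signals at 12 h were 4.54, 4.52 and 3.85 in DEX arrays and 6.52, 6.45 and 6.33 in mock arrays. All DEX arrays lay below all mock arrays, and replicate 3 was the lowest of them. The signal was 4.37-fold lower, a log2 change of -2.13 (SE 0.17, adjusted p = 1.82e-06) with rank 127 from the lowest of 15140 genes. The mean log2 signal of the DEX 12 h arrays, 4.31, lies under the 25th percentile of all row means (4.48), and since the height of such dim signals above background is unknown, the fold holds for these signals only. Falls of at least 2 on the log2 scale that passed the test were found for 1.16% of these genes. At 3 h the log2 signals were 6.20, 6.50 and 6.34 in DEX arrays and 6.75, 6.51 and 6.47 in mock arrays. These groups overlapped and the difference did not pass (log2 fold change -0.23, 95% interval -0.61 to 0.15, adjusted p = 0.991).

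The gap between the members that moved apart was large at 12 h. The DEX effect on *HSFA4D* minus that on *HSFA2B* was 7.10 on the log2 scale, and that on *HSFA4B* minus that on *HSFA2B* was 5.07. Within single arrays, *HSFA4D* minus *HSFA2B* was 6.05 to 6.84 in DEX 12 h arrays and -1.23 to -0.06 in mock 12 h arrays. Signals of different probes have no common scale, so only the change of this difference between groups can be read. At 3 h the difference of effects was 1.24 for *HSFA4B* against *HSFA2B* (exact permutation p = 0.1) and 0.53 for *HSFA4D* against *HSFA2B* (p = 0.2). The 3 pairs were tested at both times by exact permutation, and after Benjamini-Hochberg adjustment over the 6 values the lowest p was 0.12.

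**Figure D2:**
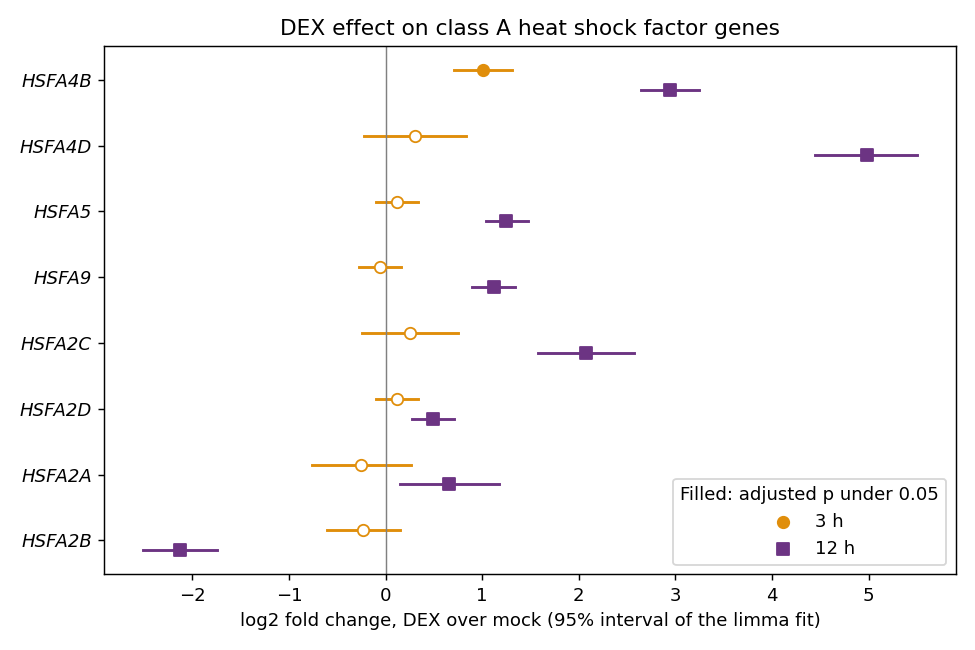
Log2 fold change of each class A gene, DEX over mock, at 3 h (orange circles) and 12 h (purple squares). Lines are 95% intervals from limma and filled symbols passed an adjusted p of 0.05. At 3 h only *HSFA4B* is filled, at 1.01. At 12 h all 8 are filled, from -2.13 for *HSFA2B* to 4.98 for *HSFA4D*.

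The other *HSFA2* genes rose at 12 h while *HSFA2B* fell. *HSFA2C* had log2 signals of 9.90, 10.18 and 10.40 in DEX 12 h arrays and 8.03, 8.10 and 8.11 in mock 12 h arrays. The groups did not overlap, and *HSFA2C* rose 4.21-fold (2.08 on the log2 scale, SE 0.23, adjusted p = 1.82e-05). At 3 h its values were widely spread, 8.27, 8.93 and 8.47 in DEX arrays and 8.49, 8.63 and 7.78 in mock arrays. The difference of 0.25 there did not pass (adjusted p = 1.0) and became -0.01 without replicate 3 of the mock group.

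*HSFA2D* changed the least of the 8. Its log2 signals were 8.86, 8.89 and 9.05 in DEX 12 h arrays and 8.44, 8.42 and 8.47 in mock 12 h arrays. They did not overlap, and the rise was 0.49 on the log2 scale (SE 0.10, adjusted p = 0.00169). *HSFA2A* was the dimmest member, with a mean log2 signal of 4.28 over the 12 arrays, also under that percentile. It had 4.45, 4.64 and 5.23 in DEX 12 h arrays and 3.91, 4.14 and 4.29 in mock 12 h arrays. The groups were only just apart, and their means differed by 0.66 on the log2 scale (SE 0.23, adjusted p = 0.0393). The call did not hold in an unmoderated test (0.0792) and when any of 5 arrays was left out, namely DEX 3 h replicate 1 (0.0509), DEX 12 h replicate 2 (0.0562) or 3 (0.148, with the log2 fold change at 0.43) and mock 12 h replicate 1 (0.126) or 2 (0.0776).

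*HSFA5* and *HSFA9* had moderate rises with little spread. Log2 signals of *HSFA5* were 9.48, 9.49 and 9.65 in DEX 12 h arrays, against 8.20, 8.24 and 8.43 in mock 12 h arrays. Those of *HSFA9* were 9.17, 9.23 and 8.92 in DEX 12 h arrays, against 7.94, 7.99 and 8.05 in mock 12 h arrays. For both genes the groups were apart by more than the spread of either. The log2 fold change was 1.25 for *HSFA5* (SE 0.10, adjusted p = 1.44e-06) and 1.12 for *HSFA9* (SE 0.10, adjusted p = 4.11e-06). Rises of at least 1 on the log2 scale that passed the test were found for 9.51% of the 15140 genes. At 3 h neither passed, with log2 fold changes of 0.12 for *HSFA5* and -0.06 for *HSFA9*.

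**Figure D3:**
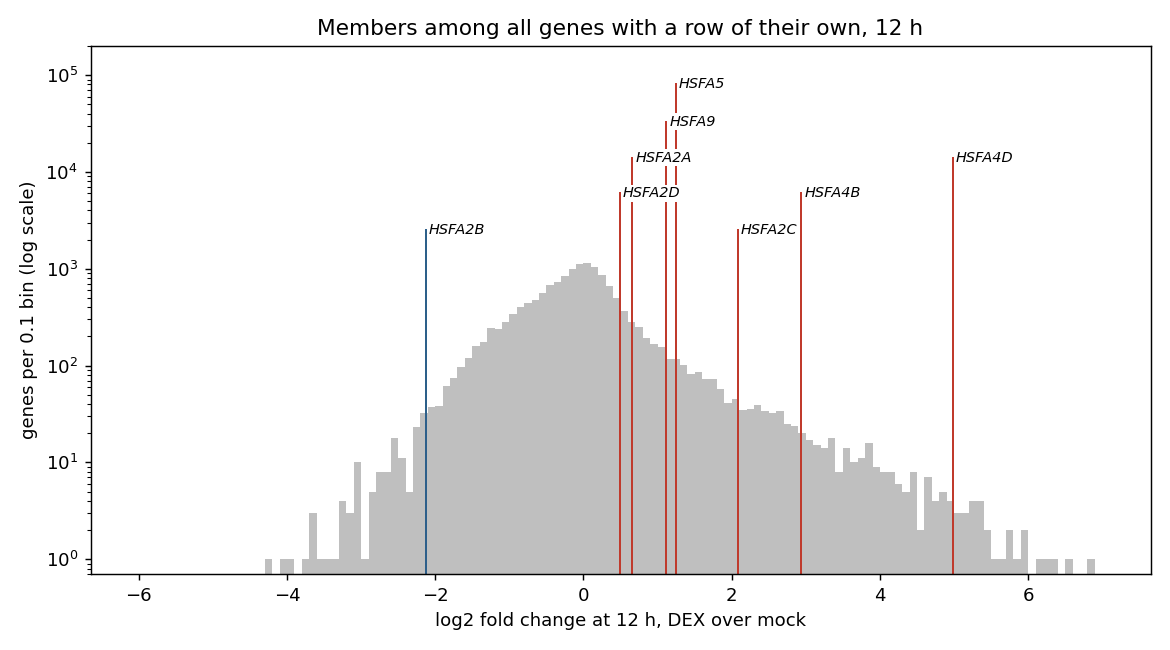
Distribution of the log2 fold change at 12 h, DEX over mock, over the 15140 genes with a row of their own, in bins of 0.1 with a log count axis. Vertical lines mark the 8 class A genes, red for those that rose and blue for *HSFA2B*. *HSFA4D* lies far into the upper tail at 4.98, *HSFA2B* in the lower tail at -2.13, and *HSFA2D* and *HSFA2A* near the bulk of the genes.

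Whether the effect of DEX grew between the times was tested as the difference of the effects at 12 h and 3 h. This passed for 6 of the 8 genes, against 29.9% of all rows (10.4% higher and 19.5% lower, or 13.4% and 15.6% after quantile normalization) and 47.6% on a fit with 1 row per gene (19.0% higher and 28.6% lower). The difference was 4.67 for *HSFA4D* (SE 0.34, adjusted p = 3.55e-06), 1.93 for *HSFA4B*, 1.82 for *HSFA2C*, 1.17 for *HSFA9*, 1.14 for *HSFA5* and -1.90 for *HSFA2B* (SE 0.25, adjusted p = 0.000153). It was 0.91 for *HSFA2A* (adjusted p = 0.0581) and 0.37 for *HSFA2D* (adjusted p = 0.065), which did not pass.

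The order of the 4 groups was the same in kind for most of the genes. The DEX 12 h group was apart from the DEX 3 h group in all 8 by the test, 7 higher and *HSFA2B* lower. This comparison called 49.3% of all rows (18.8% higher and 30.6% lower, or 24.9% and 25.5% after quantile normalization), and 62.3% on a fit with 1 row per gene (26.1% higher and 36.2% lower). *HSFA4D* was 23.9-fold and *HSFA4B* 3.72-fold higher in DEX 12 h than in DEX 3 h arrays, and *HSFA2B* was 4.12-fold lower. Between mock 12 h and mock 3 h arrays limma called none of the 8 genes and 0 of all rows. At an unadjusted p under 0.05 there were 5614 such rows, 10.2%, and 1 of the 8 genes, *HSFA2D*. Its log2 fold change was 0.25 (adjusted p = 0.423), with 8.44, 8.42 and 8.47 in mock 12 h arrays and 8.10, 8.37 and 8.12 in mock 3 h arrays. For *HSFA4B* the order was thus DEX 12 h, DEX 3 h and then the mock groups, which did not differ beyond their spread. For *HSFA4D*, *HSFA2C*, *HSFA5*, *HSFA9*, *HSFA2A* and *HSFA2D* only DEX 12 h stood apart by the tests made, and *HSFA2B* had it lowest.

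Over the 12 arrays the signal of *HSFA2B* ran against those of the other 7 genes, with Pearson's r between -0.99 and -0.772. Among the other 7, r was 0.609 to 0.987, and the lowest of these values joined *HSFA2A* and *HSFA4B*. All these values come from the same arrays and mostly follow the step between DEX 12 h and the other groups, so they are given as a description. The 1712 genes with a printable name were ranked by the same measure. Closest to *HSFA4D* were *OsSGT1* and *OsTPK3* (r = 0.994), *OPR10* and *ABCG36* (0.991) and *ABCG37* (0.99). *OsSGT1* encodes a co-chaperone of HSP90 with a role in disease resistance, *OPR10* a protein of the oxophytodienoate reductase family, and *ABCG36* and *ABCG37* ABC transporters.

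Closest to *HSFA4B* were *GL2-4*, *PSS2* and *IMCEL2* (r = 0.996) and *DOF5* and a gene named *FOR1* (0.994). Their log2 fold changes at 3 h were positive, from 0.67 for *DOF5* to 1.81 for *PSS2*, as for *HSFA4B*. Since the 3 h arrays were part of the correlation that picked these genes, this sign follows from the choice. Closest to *HSFA2B* were *IAA14* (0.989), *HXK3* (0.988), *hb1* and *CAB2R* (0.987) and *KINUB* (0.985). *IAA14* encodes a protein of the Aux/IAA family of auxin response repressors, *HXK3* a hexokinase, *hb1* (also *HOX10*) a homeobox protein, *CAB2R* a light-harvesting chlorophyll a/b-binding protein and *KINUB* a kinesin. Their log2 fold changes at 12 h were between -4.06 and -0.84, a sign that likewise follows from the choice. For the remaining members the nearest genes were *Chib3H-h* for *HSFA5* and *OsTBT2* for *HSFA9* (r = 0.995 each), *BI-1* for *HSFA2C* (0.976), a second gene named *FOR1* for *HSFA2D* (0.98) and *LAC7* for *HSFA2A* (0.859).

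Class B and class C genes moved in both directions or did not pass the test. Of class B genes, 3 of 6 in the annotation had a row. *HSFB2C* had log2 signals of 7.60, 7.53 and 7.71 in DEX 12 h arrays and 6.24, 6.07 and 5.98 in mock 12 h arrays, and rose by 1.52 on the log2 scale (SE 0.12, adjusted p = 1.23e-06). *HSFB4B* had 7.31, 7.62 and 7.53 in DEX 12 h arrays and 7.96, 8.14 and 8.22 in mock 12 h arrays, and fell (-0.62, adjusted p = 0.000867). *HSFB4C* did not pass (-0.16, adjusted p = 0.351). Class B therefore also held a rise and a fall.

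Of class C genes, 3 of 4 had a row, and *HSFC1B* was dim but rose, with 4.24, 4.95 and 4.79 in DEX 12 h arrays and 3.45, 3.44 and 3.82 in mock 12 h arrays (log2 fold change 1.09, adjusted p = 0.00204). *HSFC2A* had a log2 fold change of 0.55 (adjusted p = 0.18) and *HSFC1A* of -0.14 (adjusted p = 0.55), neither past the threshold. Over classes B and C, 2 of 6 genes rose and 1 fell, with a median of 0.20, against 7 of 8 and 1 of 8 with a median of 1.18 in class A, and 43.0% of all rows or 59.0% with 1 row per gene called either way. The difference between the classes was not tested. At 3 h limma called none of the 6, and *HSFB4C* had an unadjusted p of 0.0337.

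The heat shock protein genes with a row, a group that HSFs are known to switch on, rose, fell or did not pass the test at 12 h. Of 7 small heat shock protein genes with a row, of 22 in the annotation, 1 rose and 2 fell at 12 h, with a median log2 fold change of -0.08. This is near the share called over the array, 43.0% of all rows and 59.0% with 1 row per gene. These proteins hold unfolded proteins in solution under heat. *HSP17.7* had log2 signals of 6.69, 6.67 and 7.09 in DEX 12 h arrays and 8.11, 7.76 and 7.92 in mock 12 h arrays, and fell with the groups fully apart (-1.11, SE 0.15, adjusted p = 8.45e-05). *HSP18.0* fell by less (-0.40, adjusted p = 0.023) and *HSP17.4* rose (0.47, adjusted p = 0.0153). Small heat shock protein genes are close copies of each other, and how far their rows read each other was not tested. *HSP18.9* (mean log2 signal 1.7 in both 12 h groups) and *HSP23.2* (3.15 in DEX and 3.23 in mock 12 h arrays) did not pass. Both lay under the 25th percentile of row means (4.48), where a change could be missed.

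Of the large heat shock protein genes, 7 were left after leaving out 6 genes named *bip* with 3 digits, which the name pattern had taken in beside the *BIP* chaperone genes. The gene table gives some of these 6 other names that are not those of chaperones, *SSRP1-A* for *bip104*, *OsC3H13* for *bip105* and *BKI1* for *BIP119*. Of the 7, 2 rose and 1 fell (median 0.18), and of all 13 found by the pattern 3 rose and 3 fell. These counts are near the share called either way, 43.0% of all rows and 59.0% with 1 row per gene. *CLPB-M* (0.76, adjusted p = 0.00121), named as a mitochondrial ClpB disaggregase, and *HSP81-1* (0.74, adjusted p = 0.00458), an HSP90 gene, rose. *CLPB-C*, named as the chloroplast ClpB, fell (-0.72, adjusted p = 0.000182), with 7.15, 6.95 and 6.96 in DEX 12 h arrays and 7.88, 7.72 and 7.62 in mock 12 h arrays. The genes for *BIP1*, *BIP2*, *BIP3* and *BIP4*, chaperones of the endoplasmic reticulum, had log2 fold changes between 0.01 and 0.41, none past the threshold. The lowest value is that of *BIP4*, whose mean log2 signal was only 1.88 in DEX and 1.87 in mock 12 h arrays, so a change could be missed. The gene table lists *BIP3* as a transcribed pseudogene.

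Of 8 co-chaperone genes 3 rose and none fell by the test in limma (median 0.25), where 14.9% of all rows and 24.5% with 1 row per gene rose, and *OsRAR1*, with an unadjusted p of 0.0439, had -0.21 (adjusted p = 0.0908). *OsSGT1* had 11.38, 11.40 and 11.31 in DEX 12 h arrays and 9.80, 9.78 and 9.87 in mock 12 h arrays. With replicates this close, its log2 fold change of 1.55 had an SE of 0.08 (adjusted p = 8.7e-08). The J-domain protein genes *DJC27* (0.64) and *DJB6* (0.60) also rose. At 3 h limma called none of these heat shock protein and co-chaperone genes, and *DJC27* was the only one of them with an unadjusted p under 0.05 (0.0197).

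**Figure D4:**
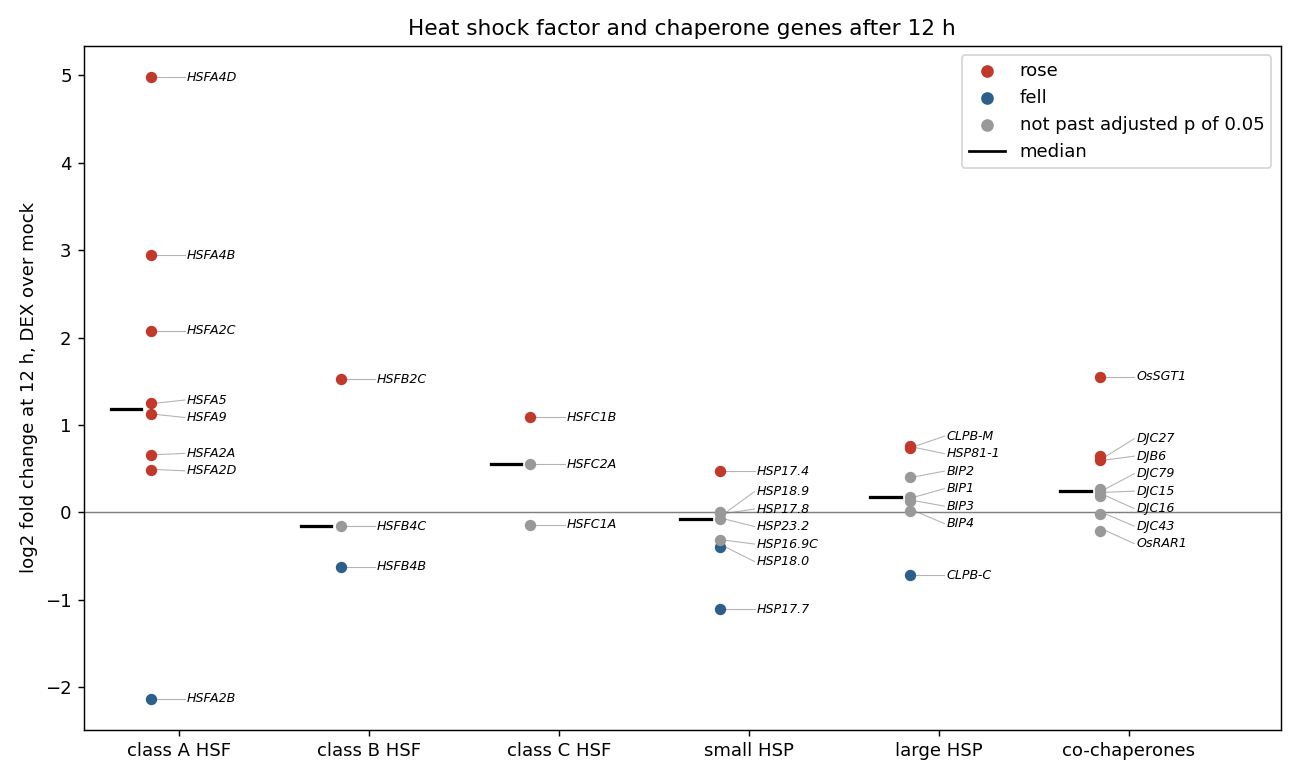
Log2 fold change at 12 h, DEX over mock, of HSF genes by class and of small heat shock protein (HSP), large HSP and co-chaperone genes. Points are genes, red for a rise and blue for a fall past an adjusted p of 0.05, grey otherwise, and black bars are list medians, 1.18 for class A and -0.08 for small HSP genes.

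Some markers of other tissues also differed between DEX and mock arrays at 12 h. All 5 green leaf marker genes with a row, of 30 in the annotation, fell at 12 h. By the same test 28.0% of all rows and 34.5% with 1 row per gene were lower. *CAB2R* (-4.06) and *RCABP69* (-3.92) fell the most. Signals of the 5 genes added up to a log2 of 7.80 to 8.11 in DEX 12 h arrays and 11.44 to 11.48 in mock 12 h arrays. At 3 h the sums were a little lower in DEX arrays, 11.01 to 11.14, than in mock arrays, 11.19 to 11.36. None of the 5 was called at 3 h, also not at an unadjusted p under 0.05. Of 9 genes with a row on the root marker list, 3 rose and 3 fell at 12 h. This is near the share called either way, 43.0% of all rows and 59.0% with 1 row per gene. The sums of the root markers were 9.80 to 10.0 in DEX and 9.42 to 9.5 in mock 12 h arrays. The largest rises were those of *QHB* (3.91) and *OsPT11* (2.72) and the largest falls those of *OsSHR1* (-1.53) and *OsSCR* (-1.11). Without *QHB* and *OsPT11* the sums of the other 7 were lower in DEX, 9.04 to 9.11 in DEX and 9.32 to 9.41 in mock 12 h arrays. The list was drawn by gene names, and *OsCRL2*, *OsCRL3* and *OsCRL4* on it have histidine kinase names as synonyms (*HK3*, *HK5* and *OsHKL1*). Whether they mark root was not tested. *OsCRL4* (0.49) is among the rises, *OsCRL3* (-0.3) is among the falls, and *OsCRL2* was the brightest of the 7. The files hold no detection calls, so no marker can be said to be at 0. The part of these shifts in the changes of the class A genes was not tested.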

How the data were processed

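The values were normalized by the authors in Affymetrix Expression Console 1.3 and deposited as 1 table of 12 arrays, which was read as log2 signal from its range. They were used as deposited. The platform annotation paired 15829 of the 54922 rows with 1 gene and 440 with several, and left 38653 unnamed. All 15140 genes were found in a RefSeq gene table (assembly ASM3414082v1), which was used for names. Where a gene had several rows, the row with the highest mean was taken. Sequences of the genes were not used here.

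The 4 group means were fitted over all 12 arrays in limma 3.58.1 (R 4.3.3), with Benjamini-Hochberg adjustment over all rows and a threshold of 0.05. The methods of the study name no test for the arrays. Differences between members were tested by two-sided exact permutation (SciPy 1.17.1, Python 3.11.15). The limma step was tested on simulated data. The members, lists and comparisons were chosen with earlier results of these data known. The genes named were all members, all class B and C genes, the 2 largest rises and falls of each other list, the *OsWOX4* row and the 5 genes most correlated with a member, of which only the nearest is given for 5 members. Other genes were named after their values were seen. The shoot apex, root and green leaf markers were lists of 16, 9 and 5 genes, drawn by patterns of gene names. Alternatives were quantile normalization, median centring, leaving out dim rows (under the 25th percentile or the median), fitting only the groups compared, a variance trend, an unmoderated test, 1 row per gene, the replicate block and dropping single arrays. Counting identical rows once, taking only rows paired with 1 gene, summing root markers without 2 genes and trimming the large heat shock protein list were added after seeing the data.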

Additional observations from a re-analysis of the deposited data

Results flagged for a closer look

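The effect of DEX differed between the times for 6 of the 8 class A genes, by a test of the difference itself in limma over all rows, which called 29.9% of rows and, with 1 row per gene, 47.6%. The difference, the log2 effect at 12 h minus that at 3 h, was 4.67 for *HSFA4D* (SE 0.34, adjusted p = 3.55e-06), 1.93 for *HSFA4B* (SE 0.19, adjusted p = 2.72e-05) and 1.82 for *HSFA2C* (SE 0.32, adjusted p = 0.00127). It was 1.17 for *HSFA9* (SE 0.14, adjusted p = 0.000103), 1.14 for *HSFA5* (SE 0.14, adjusted p = 0.000112) and -1.90 for *HSFA2B* (SE 0.25, adjusted p = 0.000153). The 6 calls stood under each alternative that could be run for this difference and without any 1 array. Groups of 3 arrays are too small to test for arrays that stand apart.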

How the results depend on the processing

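At 12 h, all 8 class A calls were kept under each alternative except that of *HSFA2A*, lost in an unmoderated test and without any of 5 arrays. The count of calls at 3 h was 0 in place of 1 in a fit of only the 2 groups compared and in an unmoderated test, and 0 to 1 when an array was left out. All rows called at 3 h numbered 134, and 6 and 83 in those fits. Between the mock groups 0 rows were called, and 2 with dim rows left out at the median, 3 with a variance trend and 9 without mock 3 h replicate 2. With arrays left out, log2 changes that had not passed changed sign: *HSFA2C* at 3 h ranged from -0.01 to 0.42, and between mock 12 h and mock 3 h *HSFA2A* from -0.31 to 0.02, *HSFA4B* from -0.14 to 0.06 and *HSFA4D* from -0.41 to 0.09. The change of *HSFA2A* between DEX 12 h and DEX 3 h did not pass without DEX 3 h or DEX 12 h replicate 3 (adjusted p = 0.0583 and 0.0586). The difference of effects passed for *HSFA2D* in 8 of 10 alternatives beside the left-out arrays (adjusted p from 0.0233 to 0.0887), and for *HSFA2A* in 4 of 8 (0.0322 to 0.109). The cause was not tested.

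No clear pairing of the arrays by replicate number was seen. Deviations of same-numbered arrays correlated over 0.1 in 1 of 18 pairs, and 5 of 12 arrays correlated best with their own number. Whether same-numbered arrays were handled together is not given in the sources used here. With the replicate block the counts of class A calls were 1 at 3 h and 8 at 12 h, as without it, and *HSFA2A* passed for the difference of effects (adjusted p = 0.0414). *HSFA2A* has no value after the filters on dim rows. No member has another row, so that alternative could not be run, nor could the difference of effects be had from 2 groups. The arrays carry no detection calls, so how far a dim signal lies above background is unknown.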

Other observations

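Genes for enzymes that make or remove peroxide and superoxide, with alternative oxidase, moved in both directions. Of 14 with a row, 5 rose and 5 fell at 12 h, with a median log2 fold change of 0.07, where 43.0% of all rows and 59.0% with 1 row per gene were called either way, and limma called none at 3 h, when *CAT-A* had an unadjusted p under 0.05 (0.0428). The largest rises were those of *AOX1*, an alternative oxidase of mitochondria (5.04, adjusted p = 1.49e-09), and of the catalase gene *CAT-B* (0.71, adjusted p = 0.000104). The largest falls were those of the ascorbate peroxidase genes *APX5* (-1.40, adjusted p = 5.01e-06) and *APX8* (-0.67, adjusted p = 0.00105). Of 5 *DREB2* and zinc finger protein genes with a row, of 8 in the annotation, 2 rose at 12 h and none fell by the test. Over the array 14.9% of all rows and 24.5% with 1 row per gene rose, and 43.0% and 59.0% were called either way. The 2 genes were *ZFP38* (0.87, adjusted p = 3.52e-05 in limma) and *ZFP33* (0.47, adjusted p = 0.00486). None of the other 3 had an unadjusted p under 0.05.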
